A study of Mus musculus with 8 samples.

Results

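The macrophage genes described here are 31 genes chosen by name as general markers of the cell type, among 23212 gene symbols in the deposited count tables. Of these, 30 were found under the listed symbol, including Emr1, the older symbol of Adgre1, which encodes F4/80. Spi1, which encodes the transcription factor PU.1, was counted under its older symbol Sfpi1 and is called Sfpi1 below. All 31 passed the filter on low counts, with 36 to 45251 reads per gene and mouse. Whole perigonadal adipose tissue was taken from 4 knockout mice, which carry an adipocyte-specific gene deletion, and from 4 wild-type mice. All 8 mice were C57BL/6, were 20 weeks old and had eaten a 45% fat diet for 12 weeks from the age of 8 weeks, and the submitters describe them as matched for age and weight. The deletion is labelled as specific to adipocytes, so macrophages are not the cells it is aimed at; the driver of the deletion is not given in the sources used here.

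Macrophages accumulate in visceral fat during obesity, where they surround dying adipocytes and take up their lipid. The cells depend on the receptor CSF1R for survival and on the factor PU.1 for their identity. They sense antibody-coated and complement-coated particles through Fc receptors and the integrin CD11b/CD18, make most of the body's C1q, digest what they engulf in lysosomes and produce superoxide with the phagocyte NADPH oxidase. In RNA from whole tissue, more macrophages and more RNA per macrophage cannot be told apart.

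The libraries held 46444435 to 51431956 counts each, and 14493 genes were tested. CPM below is the read count scaled to library size after TMM (trimmed mean of M values) correction. TPM is the read count per exonic length, scaled to the same total in each library without TMM correction. Epithelial and ciliated cell genes set apart 1 knockout and 1 wild-type mouse: the cilia regulator Foxj1 had 26.1 CPM in knockout mouse 2 and 7.97 CPM in wild-type mouse 3, against 0.287 CPM or less in the other 6. The median log2 fold change of the macrophage genes and their median correlation with Cd68 are given with and without both of these mice. Single log2 fold changes without both are given for a few members only.

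No macrophage gene passed the test of knockout against wild type, although 30 of the 31 had a higher fitted mean in knockout fat. The median log2 fold change of the list was 0.69, from -0.32 for Mertk to 1.19 for Ctss, against 0.01 over all tested genes, of which 53.1% were above 0. Most members varied together across the mice, as described below, so their signs are not independent of each other. With edgeR's quasi-likelihood test and Benjamini-Hochberg adjustment over all genes, 0 of 31 members had an adjusted p under 0.05, where 0.0138% of all tested genes did. At an unadjusted p under 0.05 the count was also 0, against 2.23% of all tested genes in either direction and 1.17% higher in knockouts, and DESeq2 and limma voom called 0 members. The smallest unadjusted p among the members was 0.117, for Clec7a, and every adjusted p rounded to 1.00. In all 31 genes the knockout and wild-type mice overlapped, while 1.44% of tested genes had separate groups.

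**Figure D1:**
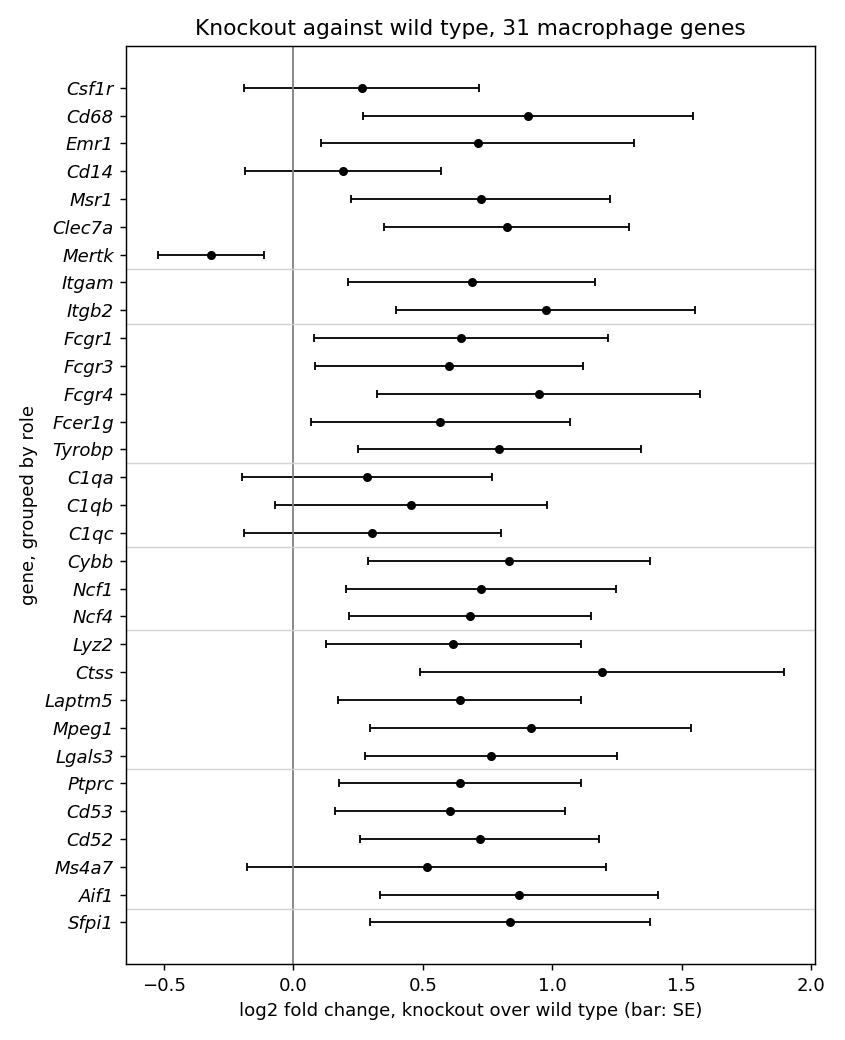
Log2 fold change of knockout over wild type for each of the 31 macrophage genes (x axis), grouped by role down the page, with bars of 1 standard error (SE) from the edgeR fit. The points lie above 0 in 30 genes, and Mertk, at -0.32, is the exception.

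The spread between mice of one genotype was as large as these differences. The 31 genes together took 0.315%, 0.135%, 0.150% and 0.540% of TMM-scaled counts in knockout mice 1 to 4. In wild-type mice 1 to 4 the shares were 0.0999%, 0.127%, 0.289% and 0.213%. Knockout mice 4 and 1 stood high, knockout mice 2 and 3 stood below wild-type mice 3 and 4, and wild-type mice 1 and 2 stood lowest. Knockout mouse 4 had the highest level of 29 of the 31 genes, and wild-type mouse 1 the lowest of 25. In the middle of the order, wild-type mouse 3 was above both knockout mice 2 and 3 in 30 of 31 genes. The median biological coefficient of variation, which measures the spread between mice of a genotype beyond counting error, was 0.492 over the members and 0.202 over all tested genes, and all 31 members lay above 0.202.

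Leaving out knockout mouse 4 brought the median log2 fold change of the list down to 0.14, with 24 of 31 genes above 0. Without both mice that had epithelial genes, the median was 1.22 with 30 of 31 above 0. The values then ran from -0.18 for Mertk to 1.98. Cd68 was at 1.66 (SE 0.62) and Csf1r at 0.79 (SE 0.44), against 0.91 and 0.26 with all mice. In that setting, added after the values were seen, 16 members had an unadjusted p under 0.05, against 5.58% of 14434 tested genes, and the smallest adjusted p was 0.870 in edgeR. No member and no other gene passed there. Because most members vary together across the mice, the 16 are not independent results.

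**Figure D2:**
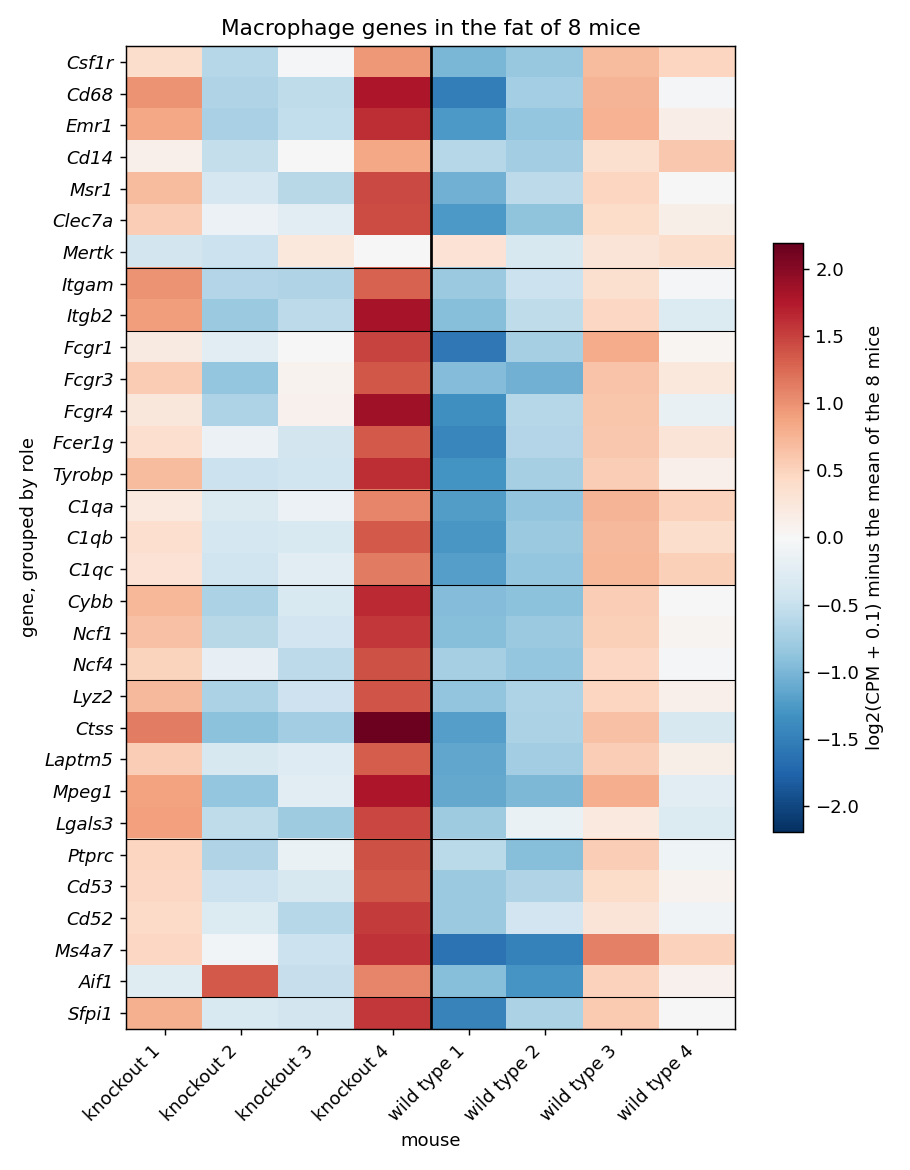
Levels of the 31 genes (rows, grouped by role) in the 4 knockout mice (left) and the 4 wild-type mice (right), as log2(CPM + 0.1) minus the gene's mean over the 8 mice. Knockout mouse 4 is highest in 29 genes and wild-type mouse 1 lowest in 25, while the order of the mice between them varies; Mertk is highest in wild-type mouse 4 and Aif1 in knockout mouse 2.

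Corrected for length, the most abundant transcripts were those of secreted and lysosomal proteins. Lyz2, which encodes the macrophage lysozyme, averaged 969 ± 654 TPM in knockout and 634 ± 297 TPM in wild-type mice (SD, n = 4 each). Lgals3, encoding the lectin galectin-3, followed with 771 ± 550 TPM in knockout and 456 ± 143 TPM in wild-type mice. Lyz2 has a near-identical neighbour, Lyz1, so reads of the pair may be divided between them in ways these counts do not show. The chains of C1q came next: C1qb averaged 377 ± 239 TPM in knockout and 276 ± 173 TPM in wild-type mice. The cathepsin Ctss and the adaptor Tyrobp, at 371 ± 357 and 261 ± 192 TPM in knockout and 164 ± 104 and 151 ± 85.6 TPM in wild-type mice, lay within the spread of their neighbours. At the other end were the scavenger receptor Msr1 and the Fc receptors Fcgr4 and Fcgr1, with means of 5.26, 4.55 and 3.40 TPM over all 8 mice. The ranges over the 8 mice overlapped between neighbours named here, while those at the ends of the order did not. The lowest mouse for Lyz2, at 371 TPM, was above the highest for Fcgr1, at 8.14 TPM. Whether neighbours differed within each mouse was not tested.

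Among the lineage and scavenging receptors, 6 of 7 genes were above 0 and none passed. Per mouse, the CPM of Cd68, a lysosomal membrane glycoprotein (chromosome 11, 69664371 to 69666062, mm10), was 76.5, 24.4, 26.2 and 134 among knockouts 1 to 4, against 13.5, 23.1, 64.7 and 37.9 among wild types 1 to 4. Knockouts 1 and 4 exceeded every wild type, and knockouts 2 and 3 sat between wild types 2 and 4. Its log2 fold change was 0.91 (SE 0.64). For Emr1, the adhesion receptor F4/80, the knockouts had 74.3, 25.1, 28.1 and 127 CPM and the wild types 17.0, 22.7, 69.98 and 45.4 CPM, which is the same order of mice as for Cd68. The log2 fold change was 0.71 (SE 0.60).

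Csf1r, the receptor for the growth factors CSF1 and IL-34, was less different between genotypes. It was at 137.9, 68.9, 103 and 206 CPM in the knockouts, against 53.0, 59.1, 171 and 147 CPM in the wild types (log2 fold change 0.26, SE 0.45). Only knockout mouse 4 exceeded all wild types. Cd14, the lipopolysaccharide co-receptor, had the smallest positive value of the list, 0.19 (SE 0.38), with 14.3, 9.16, 13.2 and 24.0 CPM in the knockouts and 8.52, 7.78, 16.8 and 20.0 CPM in the wild types. Without knockout mouse 4 the log2 fold changes of Csf1r and Cd14 turned negative, -0.07 and -0.13. Msr1, the class A scavenger receptor, and Clec7a, the beta-glucan receptor dectin-1, came out at 0.72 (SE 0.50) and 0.82 (SE 0.47) on the log2 scale, and both had knockouts 1 and 4 above every wild type.

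Mertk, a receptor kinase with which macrophages recognise and clear apoptotic cells, was the one member below 0. It was at 22.5, 21.6, 35.0 and 30.1 CPM in the knockouts, against 37.2, 23.4, 36.5 and 39.1 CPM in the wild types, a log2 fold change of -0.32 (SE 0.21). The groups overlapped, since wild-type mouse 2 was below knockouts 3 and 4. Its highest level was 1.81 times its lowest, the smallest range of the list, where the median member spanned 5.84 times and Ctss 10.4 times.

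**Figure D3:**
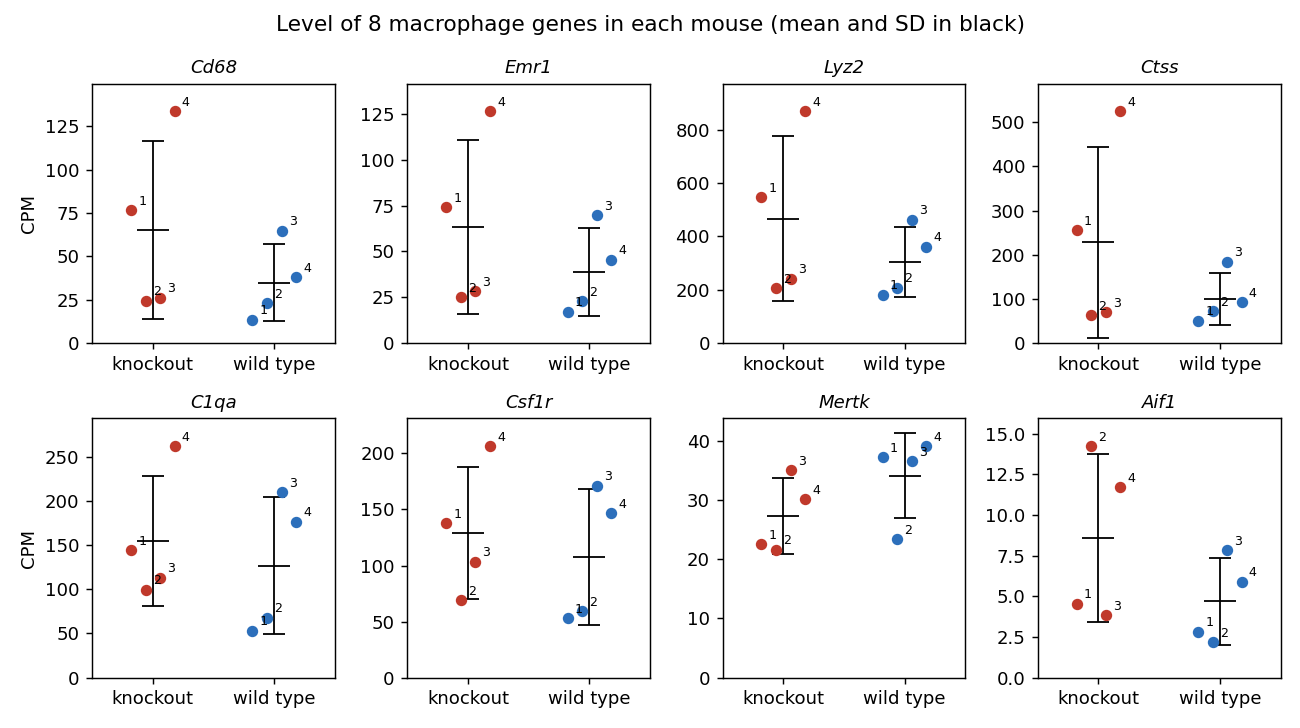
CPM (y axis, from 0) of 8 macrophage genes in knockout mice (left, red) and wild-type mice (right, blue), with the mouse number beside each point and the mean and SD in black. In 6 panels knockout mouse 4 is highest; Mertk has its highest level in wild-type mouse 4 and Aif1 in knockout mouse 2.

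The integrin chains form complement receptor 3 together. Itgam, which encodes CD11b, was at 65.8, 21.2, 21.0 and 81.4 CPM in the knockouts and at 18.9, 24.0, 42.2 and 32.3 CPM in the wild types. Its partner chain Itgb2, CD18, which pairs with every leukocyte integrin alpha chain of that family, was at 84.1, 25.3, 29.98 and 157 CPM in the knockouts and at 23.1, 30.2, 61.2 and 36.0 CPM in the wild types. Both had knockouts 1 and 4 above all wild types. The log2 fold change was 0.69 for Itgam (SE 0.48) and 0.98 for Itgb2 (SE 0.58).

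All 5 genes of Fc receptors and their signalling adaptors were above 0, with log2 fold changes from 0.57 to 0.95 and none past the test. Fcgr3, the low-affinity receptor for immunoglobulin G, was at 53.1, 19.9, 37.9 and 93.4 CPM in the knockouts, against 18.6, 17.4, 56.1 and 42.7 CPM in the wild types, so that only knockout mouse 4 exceeded the wild-type range. Fcgr1, the high-affinity receptor, and Fcgr4 averaged 4.85 ± 3.09 and 3.39 ± 2.92 CPM in knockout and 3.10 ± 2.14 and 1.75 ± 1.03 CPM in wild-type mice. Fc receptor genes resemble each other, and reads shared among Fcgr3, Fcgr4 and Fcgr2b cannot be assigned with certainty. Tyrobp (DAP12) and Fcer1g (the Fc receptor gamma chain) carry the tyrosine activation motif (ITAM) through which such receptors signal. Tyrobp was at 70.8, 31.5, 32.1 and 135 CPM in the knockouts and at 17.5, 26.5, 63.4 and 47.5 CPM in the wild types (log2 fold change 0.80, SE 0.55). For Fcer1g the values were 45.6, 32.3, 26.7 and 90.2 CPM in the knockouts and 12.9, 22.5, 53.4 and 42.7 CPM in the wild types (0.57, SE 0.50), and here knockout mouse 1 was below wild-type mouse 3.

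The C1q chains, which form the recognition part of the classical complement pathway, lie side by side on chromosome 4, C1qb from 136880145, C1qc from 136889802 and C1qa from 136895916 (mm10). Their log2 fold changes were 0.46 (SE 0.52), 0.30 (SE 0.50) and 0.28 (SE 0.48), and those without knockout mouse 4 were -0.07, -0.12 and -0.11. C1qa was at 144, 99.4, 113 and 262 CPM in the knockouts, against 53.2, 68.0, 209.6 and 177 CPM in the wild types. Wild types 3 and 4 thus exceeded 3 of the 4 knockouts. C1qb and C1qc likewise had 1 knockout mouse, number 4, above the wild-type range.

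Subunits of the phagocyte NADPH oxidase were measured for the membrane catalytic chain Cybb (gp91phox) and the cytosolic regulators Ncf1 (p47phox) and Ncf4 (p40phox). Cybb was at 54.2, 20.0, 25.8 and 102 CPM in the knockouts, against 16.7, 17.3, 47.2 and 32.3 CPM in the wild types, with knockouts 1 and 4 above every wild type. The log2 fold changes of Cybb, Ncf1 and Ncf4 were 0.83 (SE 0.54), 0.73 (SE 0.52) and 0.68 (SE 0.47).

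Genes of lysosomal, pore-forming and secreted proteins included the largest difference of the list. Ctss, which encodes cathepsin S, a protease that trims the invariant chain of MHC class II, was at 255, 63.0, 69.6 and 525 CPM in the knockouts and at 50.5, 72.4, 184 and 92.1 CPM in the wild types. Knockouts 2 and 3 were below wild-type mouse 2, and the log2 fold change of 1.19 (SE 0.70) was 0.36 without knockout mouse 4. Lyz2 was at 547, 206, 241 and 869.9 CPM in the knockouts, against 182, 208, 463 and 362 CPM in the wild types (log2 fold change 0.62, SE 0.49). Mpeg1, the pore-forming perforin-2, had a log2 fold change of 0.92 (SE 0.62), Laptm5, a lysosomal membrane protein of leukocytes, 0.64 (SE 0.47) and Lgals3 0.76 (SE 0.49).

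Leukocyte surface and cytoskeletal genes are not limited to macrophages. Ptprc (CD45), Cd53 and Cd52 are expressed by lymphocytes too, and their log2 fold changes were 0.64 (SE 0.47), 0.61 (SE 0.44) and 0.72 (SE 0.46). Ms4a7, a tetraspanning protein of macrophages, had a ratio of highest to lowest mouse of 9.82 and a log2 fold change of 0.51 (SE 0.69), which became -0.09 without knockout mouse 4. Aif1, which encodes the calcium-binding protein IBA1, was at 4.55, 14.2, 3.83 and 11.7 CPM in the knockouts, against 2.83, 2.20, 7.85 and 5.91 CPM in the wild types. Its highest level was in knockout mouse 2, where no other member was highest and where Foxj1, Epcam and Cuzd1 were at 26.1, 19.6 and 42.6 CPM; their part in the Aif1 level was not tested. The log2 fold change of Aif1 was 0.87 (SE 0.54) and 0.51 without knockout mouse 2.

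Sfpi1, the gene of PU.1, was at 24.5, 11.4, 10.8 and 42.1 CPM in the knockouts, against 5.12, 8.78, 21.5 and 14.3 CPM in the wild types, a log2 fold change of 0.84 (SE 0.54). Knockouts 1 and 4 were above all wild types, as in 18 of the 31 members, and wild-type mouse 1 was lowest.

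Across the 8 mice the members varied together. Pearson's r of log2(CPM + 0.1) with Cd68 was above 0.9 for 27 of the other 30 members, with a median of 0.955, where the median over 12908 other genes at 1 CPM or more was -0.065 and 2.63% were above 0.9. The family held 44 relations, 30 with members and 14 with markers of other cells or states. Of the members, 28 had a Benjamini-Hochberg adjusted p under 0.05 in the exact permutation test over 40320 pairings, for r and for Spearman's rho alike. Emr1 had r = 0.993 and rho = 1 with Cd68, each at the smallest p that the pairings give (exact permutation p = 2.48e-05 for r and 4.96e-05 for rho). In all, 7 members ranked the mice in exactly the order of Cd68: Emr1, Mpeg1, Laptm5, Tyrobp, Cd53, Cybb and Ncf1.

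The relation was also present without the mice at the extreme and within genotypes. Without knockouts 4 and 1, the mice farthest from the median Cd68, the median r was 0.945 over 6 mice, with 23 members above 0.9, and 25 members passed. With each genotype centred on its own mean the median r was 0.950. Without both mice with epithelial genes it was 0.965. One axis of variation held 90.8% of the variance of the members' log2 levels, against 28.9% for the leading axis of all genes at 1 CPM or more.

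Aif1 and Mertk were the exceptions. For Aif1, r with Cd68 was 0.532 and rho 0.548 (exact permutation adjusted p = 0.207 and 0.203), and r was 0.851 without both mice with epithelial genes. For Mertk, r was -0.077 and rho -0.095 (exact permutation adjusted p = 0.893 and 0.860), and r was 0.249 over the 6 mice without knockouts 1 and 4. All 13 negative correlations among the 465 pairs of members involved Mertk. Cd14 was the next loosest, with r = 0.827 and rho = 0.881 (exact permutation adjusted p = 0.0212 and 0.0114), and r = 0.781 without knockouts 1 and 4.

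Of the 14 other markers, 2 passed with Cd68, Itgax and Mrc1, both expressed by macrophage subtypes; a further subtype gene, Trem2, did not pass. Itgax, which encodes CD11c, had r = 0.944 and rho = 0.833 (exact permutation adjusted p = 0.000818 and 0.0226), and r = 0.875 without knockouts 1 and 4. Mrc1, which encodes the mannose receptor CD206, had r = 0.865 and rho = 0.929 (exact permutation adjusted p = 0.0103 and 0.00409), and r = 0.903 without knockouts 1 and 4. The lipid droplet coat gene Plin1 of adipocytes had r = -0.731 and rho = -0.667 and did not pass (exact permutation adjusted p = 0.0587 and 0.111), and r was -0.559 without knockouts 1 and 4. Trem2, a lipid-sensing receptor of macrophages, had r = 0.586 and rho = 0.548 (exact permutation adjusted p = 0.160 and 0.203), and r = 0.085 without knockouts 1 and 4. The next largest values that did not pass were those of the proliferation gene Mki67, the neutrophil gene S100a8 and the B cell gene Cd79a, with r of 0.704, 0.695 and -0.701 (exact permutation adjusted p = 0.0742 for each). Without knockouts 1 and 4 these were 0.308, 0.731 and -0.598. Weaker ones included the T cell gene Cd3e, with r = 0.296, the endothelial gene Pecam1, with r = -0.329, and the ciliary gene Foxj1, with r = 0.063 (exact permutation adjusted p = 0.520, 0.481 and 0.903).

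**Figure D4:**
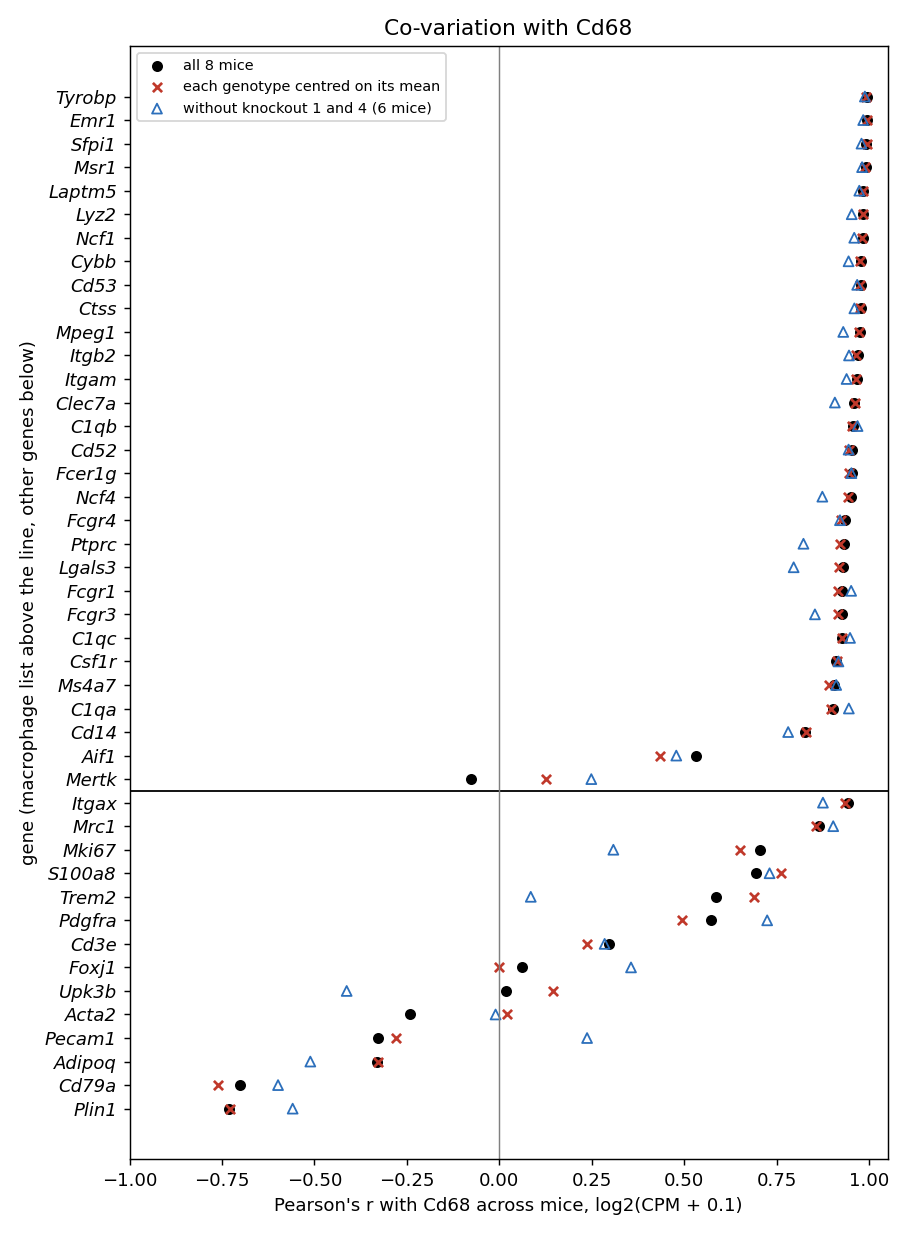
Pearson's r of each gene with Cd68 across mice (x axis) for the 30 other macrophage genes (above the line) and 14 markers of other cells or states (below it), in all 8 mice (black), with each genotype centred on its mean (red crosses) and without knockouts 1 and 4 (blue triangles). Most macrophage genes lie above 0.9 in every setting, while Aif1 and Mertk lie apart.

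The 10 genes outside the list that were most like the members' mean, over 8 mice and among genes at 1 CPM or more, were Cd48, Myo1g, Lpxn, Lcp1, Tifa, Arhgap9, C3ar1, AB124611, Btk and Tnfrsf11a, with r from 0.993 to 0.998. Cd48 is a leukocyte surface molecule, Lcp1 the leukocyte actin-bundling protein plastin, C3ar1 the receptor for complement C3a, Btk a kinase of myeloid and B cells and Tnfrsf11a the receptor RANK. Lcp1 averaged 95.2 ± 70.5 CPM in knockout and 53.2 ± 28.4 CPM in wild-type mice, and C3ar1 35.4 ± 29.1 CPM in knockout and 19.5 ± 13.9 CPM in wild-type mice. Arhgap9 shares exonic bases with Gli1, so its counts are less certain. None of the 10 passed the edgeR test (adjusted p = 1.00 for each).

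PU.1 binds purine-rich sites with a GGAA core, and promoter sequence was available for 21 of the 31 members (RefSeq, GRCm38.p6). In the 250 bases before the start site, the letters GAGGAA, on either strand, occurred in 13 of the 21, against 23.3% of 32851 promoter windows of the same length in the table. The longer GAGGAAGT, which contains it, occurred in 2 of 21 and in 2.44% of all windows. These are matches of letters and not measured binding. The last 120 bases before the start are shown, 5′ to 3′ in the direction of transcription, for 5 co-varying members with a match there, spread over the roles above, and for Mertk, which did not co-vary and had no match in 250 bases; capitals mark GAGGAA or its complement TTCCTC.
Itgam (chr7:128062520-128062639, + strand): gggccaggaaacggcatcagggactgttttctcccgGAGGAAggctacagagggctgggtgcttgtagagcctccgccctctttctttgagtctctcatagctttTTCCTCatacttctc
Fcgr1 (chr3:96293970-96294089, - strand): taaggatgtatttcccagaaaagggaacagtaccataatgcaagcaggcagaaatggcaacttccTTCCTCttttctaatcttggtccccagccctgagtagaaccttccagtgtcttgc
Laptm5 (chr4:130913196-130913315, + strand): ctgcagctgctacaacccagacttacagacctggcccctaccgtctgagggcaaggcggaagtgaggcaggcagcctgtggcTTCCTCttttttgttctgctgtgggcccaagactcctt
C1qb (chr4:136886201-136886320, - strand): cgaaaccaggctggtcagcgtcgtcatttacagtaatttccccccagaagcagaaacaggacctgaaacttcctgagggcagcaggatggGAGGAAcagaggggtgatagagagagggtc
Clec7a (chr6:129472780-129472899, - strand): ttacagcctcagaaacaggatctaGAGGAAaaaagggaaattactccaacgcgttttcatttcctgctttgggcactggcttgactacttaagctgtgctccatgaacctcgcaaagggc
Mertk (chr2:128698795-128698914, + strand): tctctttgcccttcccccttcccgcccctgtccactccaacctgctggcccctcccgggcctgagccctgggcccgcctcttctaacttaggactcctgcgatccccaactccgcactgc

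In Itgam the match nearest the start began 15 bases before it, and in Laptm5, C1qb and Fcgr1 the matches began 38, 30 and 55 bases before it. The members shown with a match had r with Cd68 of 0.967 (Itgam), 0.985 (Laptm5), 0.956 (C1qb), 0.928 (Fcgr1) and 0.959 (Clec7a). Co-varying members without the letters in 250 bases included Lyz2, Cybb, Ncf1 and Mpeg1, with r from 0.976 to 0.984. The others were Fcer1g, Lgals3 and Ms4a7, with r of 0.953, 0.929 and 0.906. Aif1, the other exception beside Mertk with an r of 0.532, did have a match, at position -7 from the start. A relation between the letters and co-variation was not tested.

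Dividing each member by Cd68 in the same mouse removed much of the spread. The median SD within genotype was 0.85 for the log2 level and 0.40 for the log2 ratio to Cd68, and 27 of 30 members had the smaller SD as a ratio. None of the 30 ratios differed between genotypes in the two-sided exact permutation test over 70 arrangements, which cannot go below 0.0286: no raw p was under 0.05, and the smallest adjusted p was 0.939. The median difference was -0.19, and 25 of 30 were below 0. All 30 ratios share Cd68, whose own log2 fold change of 0.91 was above the list's median of 0.69, so these signs are not independent. Emr1 had the tightest ratio, with a mean log2 ratio of 0.01 ± 0.08 in knockout and 0.17 ± 0.16 in wild-type mice (SD, n = 4 each; difference -0.17, exact permutation p = 0.114, adjusted p = 0.939).

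The ratio was lower in knockouts 1 and 4 than in each of the other 6 mice for 20 of the 30 members, a description made after the values were seen; these are also the mice in which Cd68 itself was highest. C1qa had log2 ratios to Cd68 of 0.91, 2.02, 2.10 and 0.97 in the knockouts, against 1.97, 1.56, 1.70 and 2.22 in the wild types. For Csf1r the ratios were 0.85, 1.495, 1.97 and 0.63 in the knockouts and 1.97, 1.35, 1.40 and 1.95 in the wild types. Ctss did not share this order, with 1.74, 1.37, 1.40 and 1.97 in the knockouts and 1.90, 1.65, 1.51 and 1.28 in the wild types. Its ratio was highest in knockout mouse 4.

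**Figure D5:**
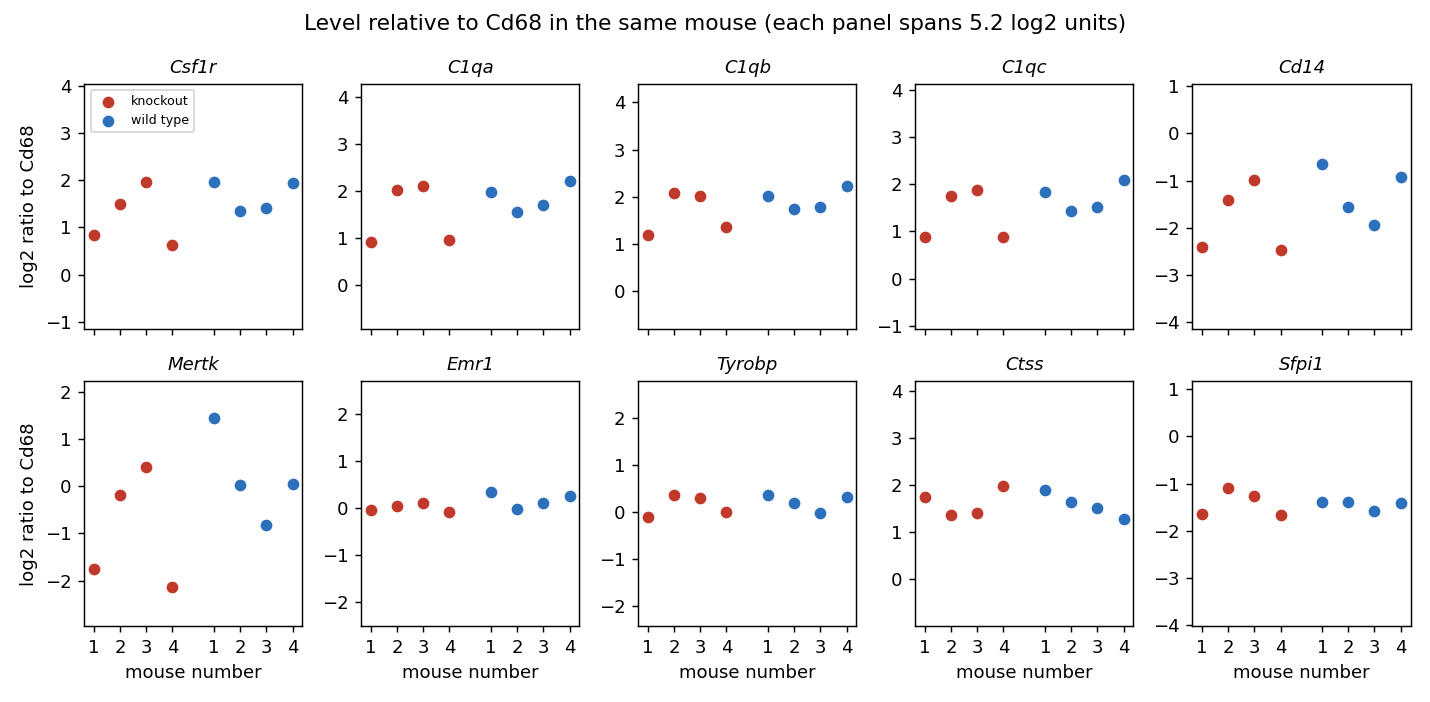
Log2 ratio of 10 macrophage genes to Cd68 in the same mouse (y axis, each panel spanning the same number of log2 units), for knockout mice 1 to 4 (left, red) and wild-type mice 1 to 4 (right, blue). Csf1r, the C1q chains and Cd14 are lowest in knockouts 1 and 4, while Emr1 stays within -0.08 and 0.33 in all 8 mice.

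Partner genes of the same pathways, were taken from lists chosen by function, and no gene of any list below passed the edgeR test over all genes. In Fc receptor and ITAM signalling all 18 partners had positive log2 fold changes (median 0.54). Those with the smallest p were the adaptor Lat2 at 1.33 (SE 0.68) and the inhibitory receptor Lilrb3 at 1.04 (SE 0.58). Lat2 was at 25.3, 8.09, 6.82 and 53.1 CPM in the knockouts, against 4.23, 8.16, 16.5 and 8.27 CPM in the wild types. All 5 further genes of the NADPH oxidase were above 0 (median 0.58), among them the membrane chain Cyba at 86.9 ± 51.1 CPM in knockout and 58.3 ± 22.8 CPM in wild-type mice.

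Other partners are made by further cells of fat as well. Of 8 genes of the classical complement pathway, 3 were above 0 and 5 below, with a median of -0.05; the receptors C3ar1 and C5ar1 were at 0.86 (SE 0.66) and 0.57 (SE 0.54) on the log2 scale. Of 9 genes that act with MERTK in clearing dead cells, 7 were above 0 (median 0.07), and its ligands Gas6 and Pros1 had values of 0.03 (SE 0.29) and -0.09 (SE 0.18). Among 6 tested genes of the CSF1 receptor axis 5 were above 0 (median 0.28): the ligand Csf1 was at 60.3 ± 18.7 CPM in knockout and 51.1 ± 4.84 CPM in wild-type mice, and Il34 at 34.4 ± 2.99 CPM in knockout and 28.5 ± 3.19 CPM in wild-type mice. For Il34 the unadjusted edgeR p was 0.0358, and it did not pass after adjustment. Its groups did not overlap, as in 1.44% of tested genes. Integrin partners had 7 of 10 above 0 (median 0.46), Toll-like receptor partners 7 of 9 (median 0.18) and macrophage transcription factors 12 of 12 (median 0.33).

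The lists of macrophage subtype genes share no member with the general list. Lipid-associated macrophage genes had 15 of 20 above 0 and a median of 0.20, M1-type genes 7 of 12 and a median of 0.08, and M2-type and resident genes 11 of 20 and a median of 0.04; the difference between these lists and the general list was not tested. The lipid-associated list is mixed: Gpnmb, Mmp12, Atp6v0d2 and Itgax had log2 fold changes from 1.44 (Itgax, SE 0.73) to 1.99 (Gpnmb, SE 0.90), above every general member, and none passed. It also holds Lpl, Fabp4 and Cd36, which adipocytes express and which were at -0.09, 0.02 and -0.10. Apoe, Ctsl and Lgals1 of the same list were below 0 as well, at -0.31, -0.18 and -0.09. Cd63, which had the smallest p of the list, was at 0.37 (SE 0.16). Gpnmb, a glycoprotein of lipid-laden macrophages, averaged 252 ± 253 CPM in knockout and 63.1 ± 48.7 CPM in wild-type mice. Mrc1 was at 68.9, 49.6, 53.3 and 115.7 CPM in the knockouts, against 27.7, 27.98, 102.3 and 88.5 CPM in the wild types. Itgax was at 57.5, 12.5, 12.02 and 114.8 CPM in the knockouts, against 11.04, 14.6, 32.4 and 14.6 CPM in the wild types. Both were highest in knockout mouse 4, and Itgax was second in knockout mouse 1 while Mrc1 was second in wild-type mouse 3.

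Markers of other cells that whole fat holds are given beside the list, and their part in it was not tested. Monocyte genes had 4 of 8 above 0, with a summed level of 353 to 797 CPM in knockout and 244 to 685 CPM in wild-type mice. All 12 T and NK cell genes were above 0 (median 0.47), at a summed 9.06 to 30.5 CPM in knockout and 7.20 to 16.8 CPM in wild-type mice. All 10 proliferation genes were above 0 too (median 0.69), at 30.8 to 72.9 CPM in knockout and 27.9 to 52.1 CPM in wild-type mice. In the edgeR test 4 of the 10 proliferation genes, and 2 of the 6 smooth muscle genes, had an unadjusted p under 0.05. So did 1 of 6 tested genes of the CSF1 receptor axis (Il34), 1 of 12 M1-type genes (Tnf, log2 fold change 1.16, SE 0.49) and 1 of 20 lipid-associated genes (Cd63). The share over all tested genes was 2.23%, and none of them passed after adjustment. Of 7 neutrophil genes only S100a8 and Elane passed the filter on low counts, and the sum was at most 13.1 CPM in knockout and 10.97 CPM in wild-type mice. S100a9, which was not tested, was at 4.46 CPM in knockout mouse 4 and at 0.588 CPM or less in every other mouse. Mast cell genes had 0 of 5 above 0 (median -0.88), B cell genes 2 of 7 (median -0.06) and dendritic cell genes 3 of 8 (median -0.04). Adipocyte genes summed to 47088 to 64007 CPM in knockout and 44785 to 60328 CPM in wild-type mice, with 7 of 12 above 0 and a median of 0.01. Further lists were the endothelial (2 of 8 above 0, median -0.10), fibroblast and progenitor (6 of 8, median 0.19), smooth muscle (0 of 6, median -0.51), mesothelial (0 of 6, median -0.39) and ciliated or epididymal epithelium genes (5 of 6, median 0.84). Foxj1, Epcam and Cuzd1 of the last list were at 26.1, 19.6 and 42.6 CPM in knockout mouse 2. In the other knockouts they were at 0.287, 0.491 and 0.593 CPM or less. The median of that list without the mice with epithelial genes is not given here.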

How the data were processed

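Per the labels' protocols, total RNA of whole perigonadal fat was read on a HiSeq4000. For each mouse the authors deposited 1 table of read counts by gene symbol, which hold whole numbers and differ in their totals, as unnormalized counts do. The mm10 genome is listed in the submitters' processing notes, as are the tools STAR 2.4.0g1, FastQC 0.11.2, edgeR, Cufflinks and featureCounts, with no role for each. The strand setting is not given in the sources used here. Gene positions and exonic lengths came from the authors' deposited annotation, in which none of the 31 members shares exonic bases with another symbol.

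The members and gene lists were chosen with earlier results of these data known. Genes were kept with filterByExpr, scaled by TMM (factors 0.966 to 1.05) and tested with the quasi-likelihood F test of edgeR 4.0.16 (R 4.3.3), with robust dispersion and no covariate, and p-values were adjusted by Benjamini-Hochberg over 14493 genes at a threshold of 0.05. The SE was derived from the F statistic. Library totals overlapped between genotypes (exact permutation p = 0.171), and no libraries of a genotype agreed within sampling noise (smallest chi-square per degree of freedom 63.0). Log2 levels used a pseudocount of 0.1 CPM. The rule for named genes took all members, up to 3 genes of each other list with the smallest p, the defining markers of other cell types, and the 10 non-members most like the members' mean; other genes were named after their values were seen. On counts simulated for this comparison (5 simulations of 200 changed genes each at 1 CPM or more, 14385 genes tested in the first), 55.0% of 2-fold and 89.2% of 4-fold changes were recovered, with 6.71% of calls false. Those genes were drawn independently, with the spread of each gene as estimated. They were drawn from all genes at 1 CPM or more, and recovery for the macrophage members alone was not measured. The members vary more between mice, with a median biological coefficient of variation of 0.492 against 0.202 over all tested genes. The recovery given therefore cannot be read as that of the members. Alternatives were other scalings and filters, DESeq2 1.42.0, limma voom 3.58.1, non-robust dispersion, the replicate number as a block, and each library left out. The targeted gene is not reported here.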

Additional observations from a re-analysis of the deposited data

Results flagged for a closer look

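Of 62 groups of 4 mice examined, 31 genes in each genotype, 1 held a mouse far from the other 3, where chance gives about 3.1. The log2 level of Mertk was 4.56 in wild-type mouse 2 and 5.19 to 5.29 in the other wild types.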

How the results depend on the processing

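No macrophage member passed under any of the 17 alternatives run, and the smallest adjusted p of a member in any of them was 0.870. The number of members above 0 was 30 in every alternative except without knockout mouse 4, and leaving out each library in turn gave 24 to 30 and a median log2 fold change of 0.14 to 0.99. Leaving out each library in turn moved the log2 fold change from -0.068 to 0.581 for Csf1r, -0.129 to 0.456 for Cd14, -0.108 to 0.638 for C1qa, -0.066 to 0.818 for C1qb, -0.121 to 0.637 for C1qc and -0.086 to 1.126 for Ms4a7; each negative value came without knockout mouse 4, the mouse with the highest level of 29 members. Over the whole transcriptome 2 genes passed, 0 with total counts, no low-count filter, limma voom, the replicate block, or both libraries with epithelial genes left out, 17 with DESeq2, and 0 to 0 without each library in turn; the cause was not tested. The replicate numbers did not pair the mice: the correlation of deviations between same-numbered mice was 0.112, 0.005, -0.314 and -0.014. With the replicate block the median log2 fold change of the members was 0.62, with 30 above 0 and 0 past the threshold. The median r with Cd68 and the number of members whose ratio to Cd68 differed kept their size with total counts and with a pseudocount of 0.5 CPM, and 25 members passed the correlation without knockouts 1 and 4, against 28 with all mice. The lowest count of a member in any library was 36.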
